A study of Mus musculus with 9 samples.

Results

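The TGF-beta receptors Tgfbr1, Tgfbr2 and Tgfbr3 and the integrin chain Itgae, the alpha subunit of CD103, were examined in mouse CD8 T cells under 3 conditions. They were found by matching the RefSeq accession in each probe set name to a gene symbol. This gave 5 probe sets of 1246 on the array, for 4 genes of 909 named: 1 each for Tgfbr1, Tgfbr3 and Itgae, and 2 for Tgfbr2 (accessions NM_009371 and NM_029575). The cells were CD8 T cells of the B10D2 strain, from females, and transgenic in all groups. The sample descriptions call the deletion and anergy cells purified and transgenic for a T cell receptor, and the naive cells transgenic only. They do not state that the transgene was the same. The control group was naive cells. Deletion cells had been stimulated in vivo by a weak signal of their cognate antigen, and anergy cells by a strong one. Each group held 3 arrays of the custom GLYCOv4 design. The name of the transgene, the antigen, its dose, the time of harvest, the age and the host animals are not known from these labels. The labels number replicates and do not say that they came from separate animals, and the p-values therefore describe the spread among these arrays, part of which may be technical.

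TGF-beta is a cytokine that restrains T cell activation and helps to maintain naive CD8 T cells. It binds the type II receptor, encoded by Tgfbr2, which recruits and phosphorylates the type I receptor, encoded by Tgfbr1, and this kinase then activates Smad transcription factors. Tgfbr3 encodes betaglycan, a membrane proteoglycan without kinase activity that captures the ligand and presents it to the type II receptor. Itgae pairs with the beta-7 integrin chain to form CD103, the receptor for E-cadherin on epithelium, and its transcription in CD8 T cells is known to be induced by TGF-beta. Part of the naive CD8 T cells of a mouse carry CD103.

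The promoter windows of both signalling receptors are given as a description, and their part in the falls was not tested. They come from RefSeq (GRCm38.p6) and run from 250 bases before to 50 bases after a gene start, written 5′ to 3′ on the strand of the gene. The table held windows for 2 of the 4 genes, Tgfbr1 and Tgfbr2, and Tgfbr3 and Itgae were not matched. Capitals mark matches, on either strand, to 3 short motifs: CAGAC, bound by Smad proteins, TGTGGT, bound by Runx factors, and GGGCGG, bound by Sp1. No marked matches overlap. The Tgfbr1 window lies at chr4:47352972-47353271 on the plus strand, and a separate Tgfbr1 window farther into the gene is not shown.
Tgfbr1: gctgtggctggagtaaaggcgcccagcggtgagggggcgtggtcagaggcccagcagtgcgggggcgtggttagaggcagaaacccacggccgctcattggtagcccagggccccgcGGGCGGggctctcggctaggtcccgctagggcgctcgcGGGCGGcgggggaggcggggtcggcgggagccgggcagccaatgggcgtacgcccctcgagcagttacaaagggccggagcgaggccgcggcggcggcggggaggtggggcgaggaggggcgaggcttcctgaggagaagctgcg
The Tgfbr2 window lies at chr9:116175314-116175613 on the minus strand.
Tgfbr2: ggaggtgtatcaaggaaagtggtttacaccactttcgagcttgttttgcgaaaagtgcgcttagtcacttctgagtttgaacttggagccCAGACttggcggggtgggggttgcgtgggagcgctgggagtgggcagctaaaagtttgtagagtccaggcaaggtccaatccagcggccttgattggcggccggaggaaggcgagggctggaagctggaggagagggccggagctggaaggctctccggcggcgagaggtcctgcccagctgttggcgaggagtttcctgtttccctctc
The Tgfbr1 window shown held 2 GGGCGG matches and 0 of the other motifs, and its GC content was 74.7%. The Tgfbr1 window that is not shown held 1 CAGAC match and 0 of the other motifs, with a GC content of 52.0%. The Tgfbr2 window held 1 CAGAC match and 0 of the other motifs, with a GC content of 59.0%. Of 32851 promoter windows of this length, 49.6% held CAGAC, 16.8% TGTGGT and 35.7% GGGCGG, so neither gene's match was rare, and a match is a description of letters only.

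The values are log2 expression after RMA, as the authors deposited them, and a difference of 1 on this scale is 2-fold. Array medians lay between 4.44 and 4.58, and the residual SD of an array around its group means was 0.0943 to 0.128 on 8 arrays and 0.166 on anergy replicate 3, which stood apart. No detection calls were used, so a probe set near the array median has no call of presence, and a fold change towards such levels can understate the real one. Of 9 markers of CD8 T cells chosen for this check only Cd2, an adhesion receptor of T cells, was measured. A gene is called measured here if a named probe set mapped to it. The Cd2 mean was 11.58 ± 0.08 (SD, n = 3) in naive, 10.01 ± 0.32 in deletion and 9.40 ± 0.08 in anergy. This gene is not particular to CD8 T cells, so the labelled CD8 type could not be checked. Cd2 moved with the members: it fell by 1.57 in deletion (limma, adjusted p = 1.7e-05), fell by 2.18 in anergy (adjusted p = 1.04e-06), and was higher in deletion than in anergy by 0.61 (adjusted p = 0.039). Its part in the results on the members was not tested.

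All 5 probe sets were lower in both tolerized groups than in naive cells. Against naive, 5 of 5 fell in deletion (10.5% of all probe sets did) and 5 of 5 fell in anergy (16.1% of all). The size of the fall set the genes apart: Itgae and Tgfbr3 lost most of their signal, while the Tgfbr1 and Tgfbr2 probe sets fell by 0.56 to 1.47 on the log2 scale. A fall of at least 2-fold was seen for 3 of 5 in deletion (2.17% of all probe sets) and 4 of 5 in anergy (3.37%). The median difference of the members was -1.02 and -1.47, beside -0.02 and 0.01 over all 1246 probe sets. No replicates overlapped with naive for 5 of 5 in deletion (17.3% of all probe sets were lower without overlap) and 5 of 5 in anergy (20.7%). Both comparisons use the same naive arrays and are therefore not independent. In bulk RNA, fewer cells that express a gene and less RNA per cell cannot be told apart.

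**Figure D1:**
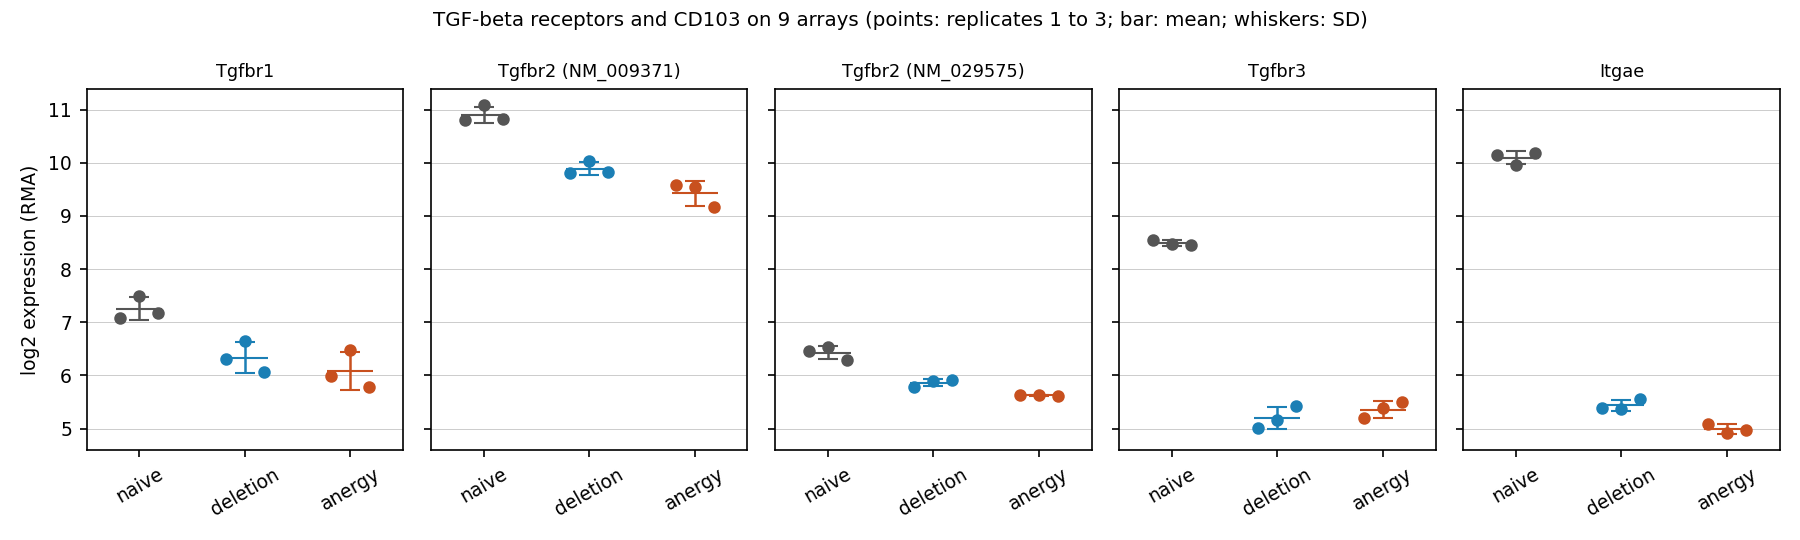
Log2 expression of the 5 probe sets on each of the 9 arrays, by group, with the group mean (bar) and SD (whiskers); levels of different probe sets are not comparable. Itgae lies at 9.96 to 10.18 in naive cells and at 4.91 to 5.56 in the 6 other arrays, and every naive array lies above every deletion and anergy array for each probe set.

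Tgfbr2, the ligand-binding kinase, was measured by its NM_009371 probe set at 10.81, 11.08 and 10.82 in naive replicates 1 to 3, at 9.80, 10.03 and 9.83 in deletion replicates 1 to 3 and at 9.58, 9.55 and 9.16 in anergy replicates 1 to 3. The 3 groups did not overlap: naive was highest, deletion lay between, and anergy was lowest, with its lowest value on the array that stood apart. The level was 2.02-fold lower in deletion than in naive cells (95% limits 1.67 to 2.46; limma, adjusted p = 0.000229) and 2.78-fold lower in anergy (2.29 to 3.37; adjusted p = 1.17e-05).

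The NM_029575 probe set of Tgfbr2 read 6.46, 6.53 and 6.29 in naive cells, 5.78, 5.90 and 5.91 in deletion and 5.64, 5.63 and 5.62 in anergy. The order of the groups was the same and again without overlap, and the anergy arrays were nearly equal (SD 0.01). The fall was 1.48-fold in deletion (1.32 to 1.66; adjusted p = 0.000344) and 1.74-fold in anergy (1.55 to 1.95; adjusted p = 2.1e-05). RefSeq lists 2 curated transcripts of Tgfbr2, 1 for each accession; the probe sequences were not used here, so whether a probe set reads 1 transcript or both is not known.

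The fall was larger by NM_009371 than by NM_029575, by 0.45 on the log2 scale in deletion and by 0.68 in anergy. The gap between both probe sets was 4.35 to 4.55 on the naive arrays, 3.92 to 4.13 on the deletion arrays and 3.54 to 3.94 on the anergy arrays. Neither set of gaps overlapped with naive, and the exact permutation test (two-sided) gave p = 0.1 each time, the smallest that this test can give for 3 arrays against 3, so it cannot decide whether the falls were unequal.

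Tgfbr1, the signalling type I kinase also called ALK5, read 7.08, 7.50 and 7.18 in naive cells, 6.30, 6.64 and 6.06 in deletion and 5.99, 6.47 and 5.78 in anergy. All naive arrays were highest, while deletion and anergy overlapped, and replicate 2 was the highest array of each group. The level was 1.89-fold lower in deletion (1.40 to 2.56; adjusted p = 0.00745) and 2.26-fold lower in anergy (1.67 to 3.06; adjusted p = 0.00114). Its replicates spread the most among the members, with an SD of 0.22 in naive, 0.29 in deletion and 0.35 in anergy.

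Tgfbr3, the co-receptor betaglycan, read 8.55, 8.48 and 8.45 in naive cells, 5.01, 5.16 and 5.43 in deletion and 5.19, 5.38 and 5.50 in anergy. The naive arrays agreed closely, with an SD of 0.05, and lay far above every other array, while deletion and anergy overlapped. The level fell 9.80-fold in deletion (8.24 to 11.7; adjusted p = 1.63e-08) and 8.79-fold in anergy (7.39 to 10.5; adjusted p = 2.59e-08). By size of difference this was the 6th lowest of 1246 probe sets in deletion and the 7th lowest in anergy.

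Itgae read 10.15, 9.96 and 10.18 in naive cells, 5.38, 5.37 and 5.56 in deletion and 5.09, 4.91 and 4.98 in anergy. The groups did not overlap, and the values in tolerized cells lay above the array medians of 4.44 to 4.58. From naive to anergy the level fell 34.4-fold (30.1 to 39.2; adjusted p = 1.21e-10), and from naive to deletion 25.3-fold (22.2 to 28.8; adjusted p = 2.9e-10). It was the 3rd lowest difference of 1246 probe sets in both comparisons.

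Itgae fell by more than Tgfbr3, by 1.37 on the log2 scale in deletion and by 1.97 in anergy. The gap between their values was 1.48 to 1.73 on the naive arrays, 0.13 to 0.37 on the deletion arrays and -0.52 to -0.10 on the anergy arrays. No group overlapped with another. The exact permutation test cannot go below 0.1 here (two-sided) and gave that value each time, so the gaps are a description. In tolerized cells Itgae lay at 4.91 to 5.56 and Tgfbr3 at 5.01 to 5.50, above the array medians of 4.44 to 4.58. Without a detection call a floor under either value cannot be told apart from a level.

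**Figure D2:**
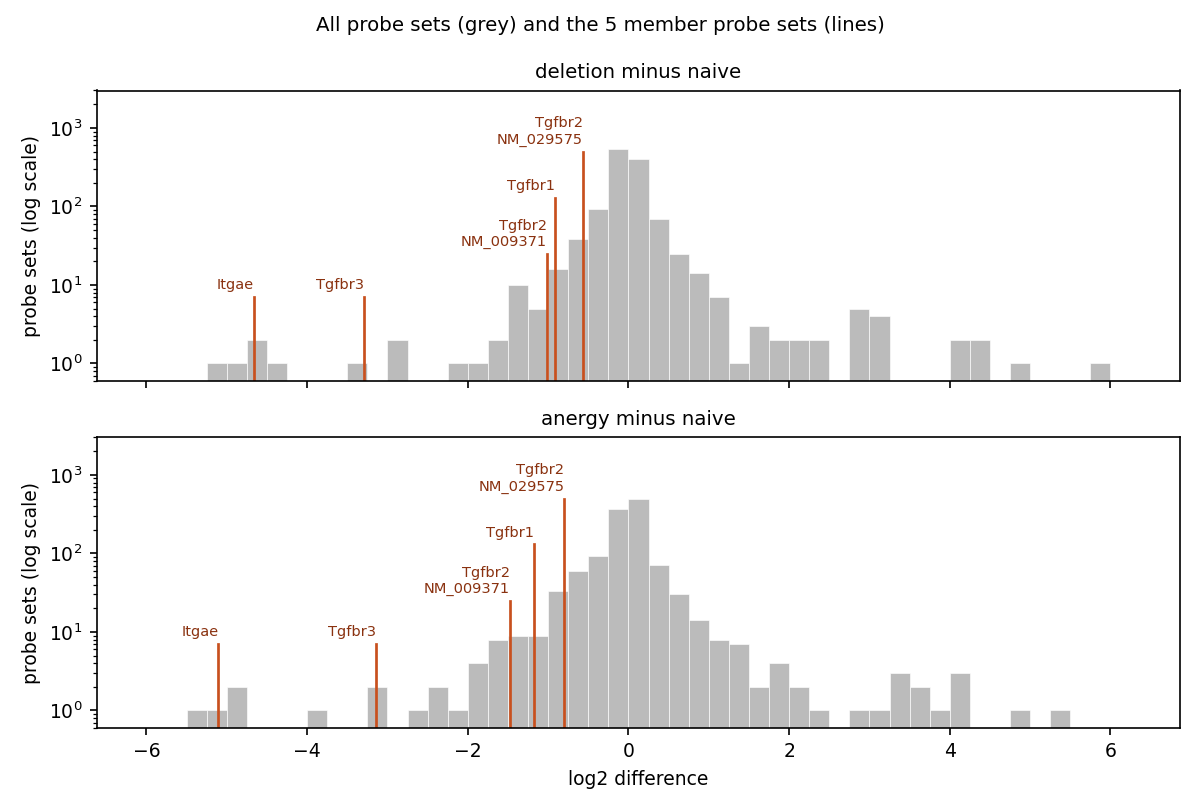
Histograms of the log2 differences of all 1246 probe sets against naive cells (horizontal axis; number of probe sets on a log axis), with lines at the 5 member probe sets. Itgae and Tgfbr3 lie in the sparse left tail at -4.66 and -3.29 in deletion and at -5.10 and -3.14 in anergy, and Tgfbr1 and Tgfbr2 at the left edge of the main body.

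Dendritic cells of the CD103 type also express Itgae, and markers of such cells were therefore looked up. Of 8 markers 2 were measured, Ly75 and Xcr1. Ly75, the endocytic receptor DEC-205, fell in both groups in limma, from a mean of 6.65 ± 0.09 (SD) in naive cells by 0.60 ± 0.10 (SE) in deletion (adjusted p = 0.002) and by 0.65 ± 0.10 in anergy (adjusted p = 0.000815). Xcr1, a chemokine receptor of cross-presenting dendritic cells, had means of 3.40, 3.33 and 3.42, all below the array medians. The mean of both markers was 5.02 to 5.04 on naive arrays, 4.63 to 4.73 on deletion arrays and 4.57 to 4.82 on anergy arrays. Their part in the fall of Itgae was not tested. Endothelial and stromal markers, as other sources of Tgfbr3, had 2 of 8 measured, Pdgfra and Pdgfrb, with a mean of 3.32 to 3.40 on naive arrays, 3.23 to 3.32 on deletion arrays and 3.21 to 3.48 on anergy arrays, and neither passed the threshold in limma. Of the remaining markers, 1 of 5 for CD4 and regulatory T cells, 4 of 9 for macrophages and monocytes, 3 of 8 for B cells, 1 of 5 for natural killer cells and 0 of 4 for epithelial cells were measured. Of the B cell markers, Cd22 differed from naive by 1.17 in deletion and 0.98 in anergy, and Cd72 by -1.56 and -1.64. Cxcr5 was higher in deletion by 0.64 and differed by 0.10 in anergy, where it did not pass. The mean of these 3 was 7.04 to 7.24 on naive arrays, 7.05 to 7.54 on deletion arrays and 6.87 to 7.12 on anergy arrays. Rises and falls offset each other in this mean. Il2ra, which activated CD8 T cells express too, was higher in anergy by 1.16. Their part was not tested either.

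The direct comparison of deletion with anergy addresses the study's question of how weakly and strongly stimulated cells differ. Itgae was 1.36-fold higher in deletion (1.19 to 1.55; difference 0.44 ± 0.09, SE; limma, adjusted p = 0.0226), with all 3 deletion arrays above all 3 anergy arrays. The 4 measured macrophage and monocyte markers were also higher in deletion, by 0.24 to 0.48, and none passed. Their mean was 3.48 to 3.73 on naive arrays, 3.40 to 4.07 on deletion arrays and 3.28 to 3.64 on anergy arrays, and their part was not tested. The marker Il2ra went the other way, with a difference of -1.05 between deletion and anergy (limma, adjusted p = 0.000525), without overlap. The part of Il2ra was not tested either. Itgae was the only 1 of the 5 probe sets past the threshold, where 3.37% of all probe sets passed. The call was lost in 5 of 16 alternatives. The adjusted p was 0.0513 or 0.0819 when deletion replicate 2 or 3 was left out, 0.077 or 0.0551 when anergy replicate 2 or 3 was left out, and 0.0581 when only the 6 arrays of these groups were fitted, while the difference stayed between 0.38 and 0.49.

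Both Tgfbr2 probe sets were also without overlap and higher in deletion, by 0.46 ± 0.12 (NM_009371, adjusted p = 0.0858) and 0.23 ± 0.07 (NM_029575, adjusted p = 0.129), and did not pass. Same-numbered deletion and anergy arrays deviated together in these data, though the labels state no pairing. A block drawn from the same arrays gives no separate support. With the replicate number as such a block in limma, the adjusted p of NM_009371 was 0.0322. It was 0.0238 after quantile normalization, with a difference of 0.37, and 0.272 at its highest among the 16 alternatives. In all, 3 of 5 member probe sets were higher in deletion without overlap, which held for 11.0% of all probe sets.

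Tgfbr1 differed by 0.25 between deletion and anergy (95% limits -0.18 to 0.69; adjusted p = 0.578), and the limits include a 1.61-fold higher level in deletion. Tgfbr3 differed by -0.16 (-0.41 to 0.09; adjusted p = 0.538), the only member with a lower mean in deletion than in anergy. In the order of the groups, naive was highest for every probe set. Deletion was above anergy beyond the spread for Itgae and for both Tgfbr2 probe sets, the latter not past the threshold, and these neighbours were not separated for Tgfbr1 and Tgfbr3.

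**Figure D3:**
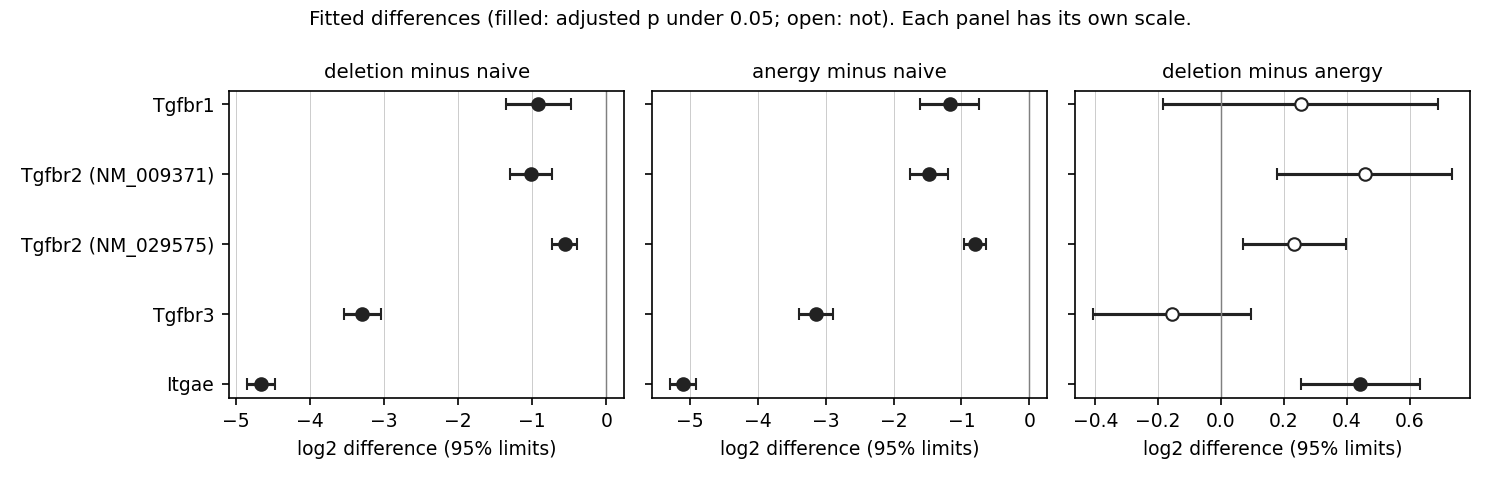
Fitted log2 differences with 95% limits in the 3 comparisons, with filled points for an adjusted p under 0.05 and a separate horizontal scale in each panel. All 5 points are filled and below 0 against naive cells; between deletion and anergy only Itgae, at 0.44, is filled.

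The other genes of the TGF-beta superfamily showed few changes. From a list of 83 ligands, receptors, Smad proteins, matrix binders and inhibitors, which leaves out the members, 38 were measured. Against naive, 2 fell and 0 rose in deletion (5.26% of the list, beside 19.0% of all probe sets in either direction), and 4 fell and 1 rose in anergy (13.2%, beside 26.8%). The median difference of the list was -0.01 and 0.05. Most of these probe sets lay near or below the array median, where a change is hard to see. No measured probe set was named as a Smad.

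Among 7 other measured receptors of the superfamily, 2 fell in deletion (28.6%, beside 19.0% of all probe sets in either direction) and 3 fell and 1 rose in anergy (57.1%, beside 26.8%). Acvrl1, the type I receptor ALK1, had means of 4.20 ± 0.29 in naive, 3.38 ± 0.15 in deletion and 3.28 ± 0.17 in anergy. These means lay below the array medians, and the Acvrl1 probe set can bind more than 1 transcript. Its values were 4.50, 4.18 and 3.93 in naive cells and no higher than 3.50 elsewhere, a fall of 0.82 ± 0.15 (SE) in deletion (adjusted p = 0.00255) and 0.92 ± 0.15 in anergy (adjusted p = 0.000832), in limma. Acvr2a, a type II receptor for activins, was at 5.20, 5.17 and 5.05 in naive cells, 4.70, 4.37 and 4.59 in deletion and 4.74, 4.74 and 4.29 in anergy, without overlap between naive and either group. It fell by 0.59 ± 0.13 (adjusted p = 0.00885) and 0.55 ± 0.13 (adjusted p = 0.00917). The calls of both genes held in each of 16 alternatives.

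Acvr2b, a closely related type II receptor, fell in anergy by 0.31 ± 0.09 (adjusted p = 0.0321) and was 0.28 lower in deletion without passing (adjusted p = 0.0634). Acvr1, the type I receptor ALK2, rose in anergy by 0.38 ± 0.11 (adjusted p = 0.0246) from a mean of 2.61, near the lowest values of the table, and its difference of 0.31 in deletion did not pass (adjusted p = 0.0853). The anergy calls of both were lost without naive replicate 2, anergy replicate 2 or anergy replicate 3. The list then had 2, 3 and 3 genes past the threshold in anergy instead of 5.

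Of 24 measured ligands, 0 passed in deletion (beside 19.0% of all probe sets) and 1 in anergy (4.17%, beside 26.8%), in limma, the tool run here. At an unadjusted p under 0.05 there were 3 ligands in deletion, beside 341 of all 1246 probe sets. Tgfb1, the main TGF-beta of immune cells, was the only 1 of the 3 TGF-beta ligands well above the array median. Its values were 8.43, 8.61 and 8.37 in naive cells, 8.74, 8.39 and 8.83 in deletion and 8.79, 8.72 and 8.46 in anergy, and the groups overlapped. It differed from naive by 0.18 ± 0.13 (SE) in deletion (adjusted p = 0.443) and by 0.19 ± 0.13 in anergy (adjusted p = 0.367), and by 0.34 in anergy after quantile normalization (adjusted p = 0.0435). Tgfb2 had means of 4.01, 4.04 and 4.06 and Tgfb3 of 4.19, 4.01 and 4.17 in naive, deletion and anergy, and neither passed in limma as deposited. After quantile normalization Tgfb3 was lower in deletion by 0.21 (adjusted p = 0.0424). Bmp6, a bone morphogenetic protein, was the ligand that passed in anergy, with a fall of 0.20 ± 0.06 (adjusted p = 0.0345) at means of 3.76 and 3.56, and 7 of 16 alternatives lost its call. Between deletion and anergy 0 of the 38 genes passed in limma, beside 3.37% of all probe sets. Of these 38 genes 1 had an unadjusted p under 0.05, beside 188 of all 1246 probe sets.

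**Figure D4:**
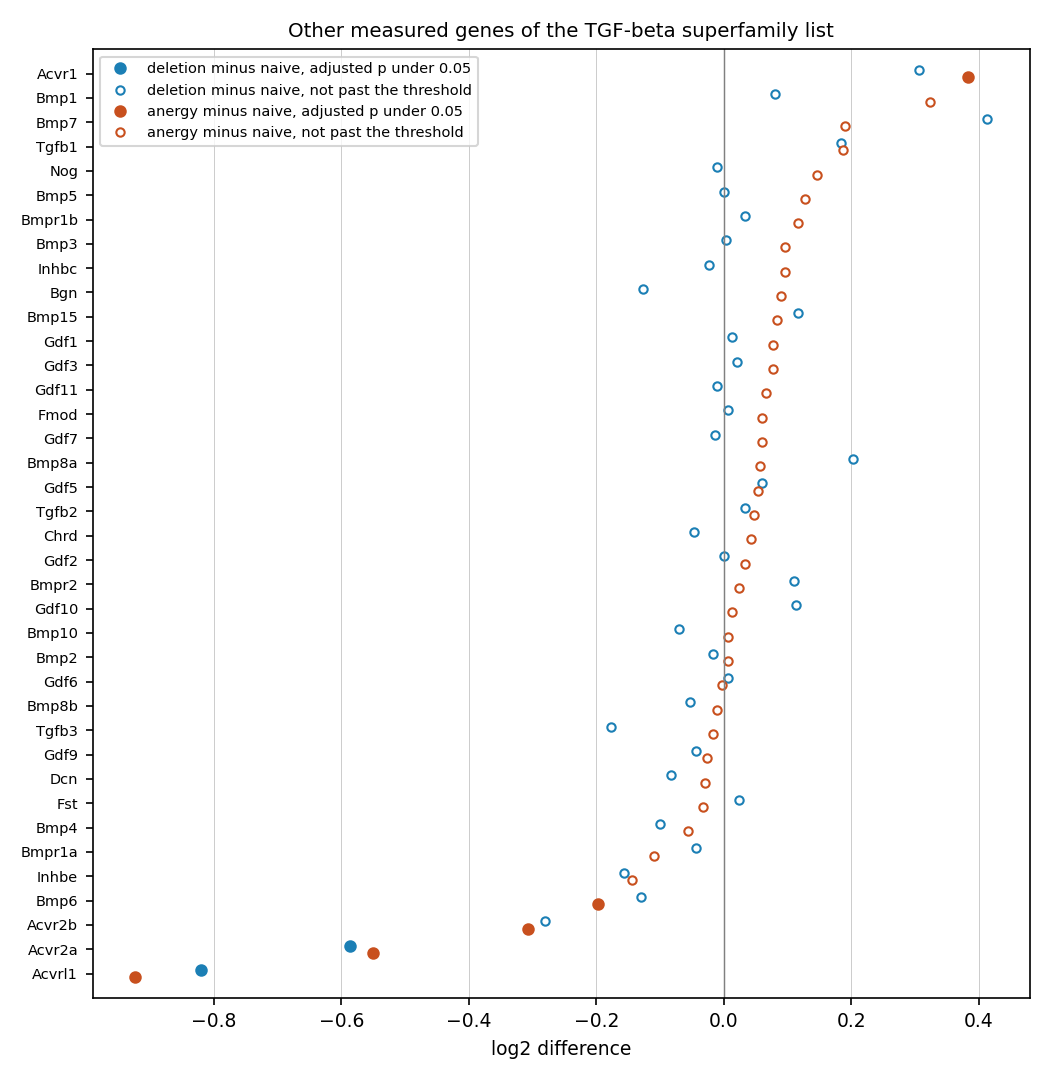
Log2 differences against naive cells (horizontal axis) of the 38 other measured genes of the TGF-beta superfamily list, in deletion and anergy, with filled points for an adjusted p under 0.05. Acvrl1 and Acvr2a are filled and below 0 in both comparisons, and most of the other genes lie near 0.

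For CD103 the partners could not be followed. Of 27 integrin chains and E-cadherin (Cdh1), other than Itgae, 0 had a named probe set, Itgb7 and Cdh1 among them. Whether an unnamed probe set reads any of these genes is not known. Since Tgfbr3 carries glycosaminoglycan chains, it was set beside 15 other cell surface and intracellular proteoglycans, of which 14 were measured. In deletion 2 rose and 2 fell (28.6% of the list, beside 19.0% of all probe sets), with a median of -0.02. In anergy 1 rose and 2 fell (21.4%, beside 26.8%), with a median of -0.03. Between deletion and anergy 0 passed in limma, beside 3.37% of all probe sets. Cd44, a hyaluronan receptor, rose 3.61-fold in deletion and 3.91-fold in anergy. The glypicans Gpc1 and Gpc2, which are anchored by lipid, fell by 0.60 ± 0.11 and 0.34 ± 0.08 in deletion and by 0.38 ± 0.11 and 0.33 ± 0.08 in anergy. Without anergy replicate 2 neither passed in anergy (limma, adjusted p = 0.0956 and 0.057). The anergy call of Gpc1 was also lost without naive replicate 1 or 2 and that of Gpc2 without naive replicate 2, and the deletion call of Gpc2 was lost without naive replicate 2 or 3 or deletion replicate 3. Srgn, the granule proteoglycan serglycin, was higher in deletion by 0.27 (adjusted p = 0.0487), a call that 13 of 16 alternatives lost. The fall of Tgfbr3, by 3.29 on the log2 scale in deletion and 3.14 in anergy, was larger than any fall in this list, where the lowest differences were -0.60 and -0.38; this is a description of sizes and was not tested.

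The genes most like each member were found as the 3 named genes with the smallest root mean square difference in log2 values over the 9 arrays, each gene centred on its own mean. For Itgae the nearest was Ccr9, a gut homing receptor, at 0.19, which differed from naive by -4.92 in deletion and -5.38 in anergy; its probe set can bind more than 1 transcript. Next came Galnt10, which starts O-linked glycans, at 0.79, and Tgfbr3 at 0.83. For Tgfbr3 the nearest was Igfbp4, a binding protein of insulin-like growth factors, at 0.20, with differences of -2.95 and -3.12, followed by Galnt10 at 0.52 and Il7r, the interleukin-7 receptor, at 0.54.

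For Tgfbr1 the nearest genes were Cmah at 0.16, Csgalnact2 at 0.17 and Ccr7, the lymph node homing receptor, at 0.18. For Tgfbr2 by NM_009371 the nearest were Galnt11 at 0.10 and Xylt2 and Ccr7 at 0.12 each. The probe sets of Cmah and Xylt2 can bind more than 1 transcript. By NM_029575 the nearest were Tpst2 and Ifngr1, a chain of the interferon-gamma receptor, at 0.07 and Arsa at 0.08. All of these nearest genes were lower than naive in both groups, as the measure requires, and genes with small changes are close to many others on it, so the distances describe the 9 arrays and compare no members with each other.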

How the data were processed

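Total RNA was labelled with biotin and hybridised to single-colour Affymetrix arrays, per the labels' protocols. The deposited log2 values were made by the authors with RMA, per the submitters' processing notes, which name no other step; its version and any filter are not given in the sources used here. Of 1246 probe sets, 963 (77.3%) were named by their RefSeq accession, without version, through a RefSeq table of GRCm38.p6. Values were used without further normalization or filter. The model (lmFit, then eBayes, of limma 3.58.1 under R 4.3.3) held all 9 arrays and no block, with 6 residual degrees of freedom, two-sided, and adjusted by Benjamini-Hochberg over all 1246 probe sets at a threshold of 0.05. The fit was tested on simulated data with independent arrays of equal spread. That test does not cover arrays that deviate together or an array that stands apart. Deletion and anergy arrays of the same number deviated together (r = 0.195, 0.27 and 0.28), and arrays of different numbers were not compared. This pairing comes from the data and is not stated by the labels. Pairs with naive did not all deviate together. Genes other than the members were taken at their brightest probe set, members at all of theirs. The text names all members, every superfamily, integrin or proteoglycan gene past the threshold, the 3 TGF-beta ligands, Itgb7 and Cdh1, and the 3 genes most like each member. Marker genes named beside them were chosen after their values were seen. Members, lists and tests were chosen with earlier results of these data known. Tried alternatives were 2 scalings, a replicate block, leaving out each array, fits of 6 arrays, a trended robust prior, array weights, a filter on dim probe sets and, for the superfamily counts, another probe set per gene. The number of arrays limits the precision.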

Additional observations from a re-analysis of the deposited data

How the results depend on the processing

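Against naive, all 5 member probe sets stayed lower and past the threshold in each of 16 alternatives in both comparisons; Tgfbr1 had the highest adjusted p (0.0351 in deletion). Between deletion and anergy 1 member probe set passed; 2 did after quantile normalization and with a replicate block, 0 in the fit of only the arrays compared, and 0 to 1 when 1 array was left out. The superfamily count in deletion was 5 with array weights (2 higher and 3 lower) instead of 2, and 2 to 3 without 1 array. In anergy it was 2 in the fit of the arrays compared instead of 5, 7 after quantile normalization (3 higher and 4 lower, instead of 1 and 4), and 2 to 5 without 1 array. The proteoglycan count in deletion was 2 to 4 without 1 array, with 2 without naive replicate 3 or deletion replicate 3; in anergy it was 2 to 4 instead of 3 without 1 array, with 2 higher and 0 lower without anergy replicate 2. Its alternatives were added after the data were seen. The difference of Tgfb2 in anergy turned to -0.021 after quantile normalization, and that of Tgfb3 ranged from -0.082 to 0.03 when 1 array was left out, above 0 when naive replicate 3 or anergy replicate 1 or 2 was missing. With the replicate block, Bmp6 was lost in anergy (adjusted p = 0.0558) and Acvr2b passed in deletion (0.0475). Deviations of same-numbered arrays correlated at r = -0.154, 0.274 and 0.175 between anergy and naive. Between deletion and naive the values were -0.136, 0.118 and -0.142, so a pairing is not settled. The calls over the whole array between deletion and anergy were split 26 higher to 16 lower, against 32 and 38 after quantile normalization, 13 and 13 after median centring and 44 and 31 with array weights, and 20 to 44 passed without 1 array. The integrin list gave no value because none of its genes had a named probe set. The causes were not tested. Signal over background is not known here, so probe sets near the array median limit what can be seen.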
